A study of Mus musculus with 8 samples.

Results

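The miR-183, miR-96 and miR-182 cluster was followed in myoblasts, the dividing precursor cells of skeletal muscle, of 4 old and 4 young mice. Its members were taken by name: the precursors mmu-mir-183 (MI0000225), mmu-mir-96 (MI0000583) and mmu-mir-182 (MI0000224), written mir-183, mir-96 and mir-182 from here on, 3 of the 1181 precursors listed. Old and young mice were both C57BL/6J, and the labels give neither an age in months nor a sex, treatment or genotype. Small RNA was sequenced with 1 library per mouse, named here old 1 to old 4 and young 1 to young 4 after the numbers in the labels. Values are the authors' deposited log2 abundances per precursor, which behave as reads per length of precursor and per library size (RPKM), although the unit is not stated. Levels of different precursors are set side by side on this scale; how well each sequence is captured, and how arms and reads with several matches were counted, is not known. A precursor was compared between ages where its linear value reached 10 in at least 4 libraries; 359 precursors did so, and all 3 members were among them.

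The 3 hairpins are cut from a common primary transcript, and the mature miRNAs guide Argonaute proteins to messenger RNAs that pair with the seed, bases 2 to 8. The cluster is known for its high level in sensory cells such as photoreceptors and hair cells of the inner ear, where changes in the seed of miR-96 cause hearing loss in mouse and human. In muscle cells miR-182 is known to repress FoxO3, a transcription factor that switches on genes of muscle wasting.

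The hairpins lie on the minus strand of chromosome 6 (GRCm38, the same build as mm10), in the order of transcription mir-183 (chr6:30169668-30169737), mir-96 (chr6:30169446-30169551) and mir-182 (chr6:30165918-30165992). They span 3820 bases, with 116 bases between mir-183 and mir-96 and 3453 bases between mir-96 and mir-182. RefSeq places all 3 within the long noncoding RNA gene Mirc35hg (chr6:30158640-30174125), between the protein-coding genes Nrf1 and Ube2h. GENCODE lists the noncoding gene Rncr4 on the opposite strand (chr6:30172893-30175126), across the start of Mirc35hg. The mature sequences, from RefSeq's GRCm38.p6 table, are printed 5′ to 3′ with the seed in capitals, because the seeds show how the members are related.
miR-183-5p: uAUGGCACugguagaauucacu
miR-96-5p: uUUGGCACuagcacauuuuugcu
miR-182-5p: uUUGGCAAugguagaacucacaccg
miR-183-3p: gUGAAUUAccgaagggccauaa
miR-96-3p: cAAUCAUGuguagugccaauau
miR-182-3p: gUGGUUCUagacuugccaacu
The 5p seeds all hold the run UGGCA. Counted from 1 at the 5′ end, miR-182-5p differs from miR-96-5p within the seed by C8A, and miR-183-5p differs from miR-96-5p by U2A. The longest run that any pair of these 5p arms shares is 8 bases, UGGUAGAA in miR-183-5p and miR-182-5p. Full-length mature reads of the 3 members therefore have different sequences. The deposited values do not separate the 5p from the 3p arm of a precursor.

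The hairpins, also from RefSeq, show where the arms sit, with both mature arms in capitals.
Mir183: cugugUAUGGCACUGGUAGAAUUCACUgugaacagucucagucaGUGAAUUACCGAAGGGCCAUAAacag
Mir96: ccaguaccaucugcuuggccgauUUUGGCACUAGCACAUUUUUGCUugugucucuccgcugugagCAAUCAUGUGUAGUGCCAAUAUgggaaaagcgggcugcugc
Mir182: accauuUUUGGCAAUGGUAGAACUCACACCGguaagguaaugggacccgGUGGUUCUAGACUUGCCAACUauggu
Their lengths of 70, 106 and 75 bases enter the abundance values, which are per length.

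Taken over the whole series, the libraries held 25.1 to 39.4 M reads as recovered from the steps of the lowest values, and every young library was larger than every old one. The most abundant of 10 listed muscle miRNAs were present throughout: mir-486, a muscle-enriched miRNA, lay between 20.29 and 22.11, and mir-378a, in an intron of the metabolic coactivator gene Ppargc1b, between 16.67 and 17.43. mir-206 lay between 14.78 and 16.52, mir-133a-1 between 11.91 and 14.92, mir-133a-2 between 11.28 and 14.29 and mir-133b between 10.17 and 13.28. The remaining listed ones were near the floor in some or all libraries. mir-1a-1 and mir-1a-2 reached at most 3.22 and 2.47 and were not compared. mir-208b was at 0 in 2 libraries, and mir-499 fell to 0.36 in young 4. In bulk libraries such as these, fewer cells that express a miRNA and less of it per cell cannot be told apart. Old 3 and young 4 had been singled out at other miRNAs in earlier results of these data, so the member values were also computed without both.

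The outer members were abundant and the middle member was scarce. mmu-mir-183 had log2 abundances of 15.55, 13.36, 15.68 and 15.88 in the old libraries 1 to 4, against 15.92, 13.96, 14.66 and 17.14 in the young libraries 1 to 4. mmu-mir-182, which lies last in the transcript, had 15.04, 13.30, 15.58 and 15.73 in the old libraries 1 to 4, against 15.65, 14.20, 14.33 and 17.36 in the young libraries 1 to 4. For both, old 2 was the lowest library and young 4 the highest, and the old and young groups overlapped. mmu-mir-96, between them in the transcript, had 5.39, 3.58, 5.71 and 6.36 in the old libraries 1 to 4, against 6.42, 3.65, 4.01 and 7.69 in the young libraries 1 to 4. Here too old 2 was lowest and young 4 highest, and the groups overlapped.

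**Figure D1:**
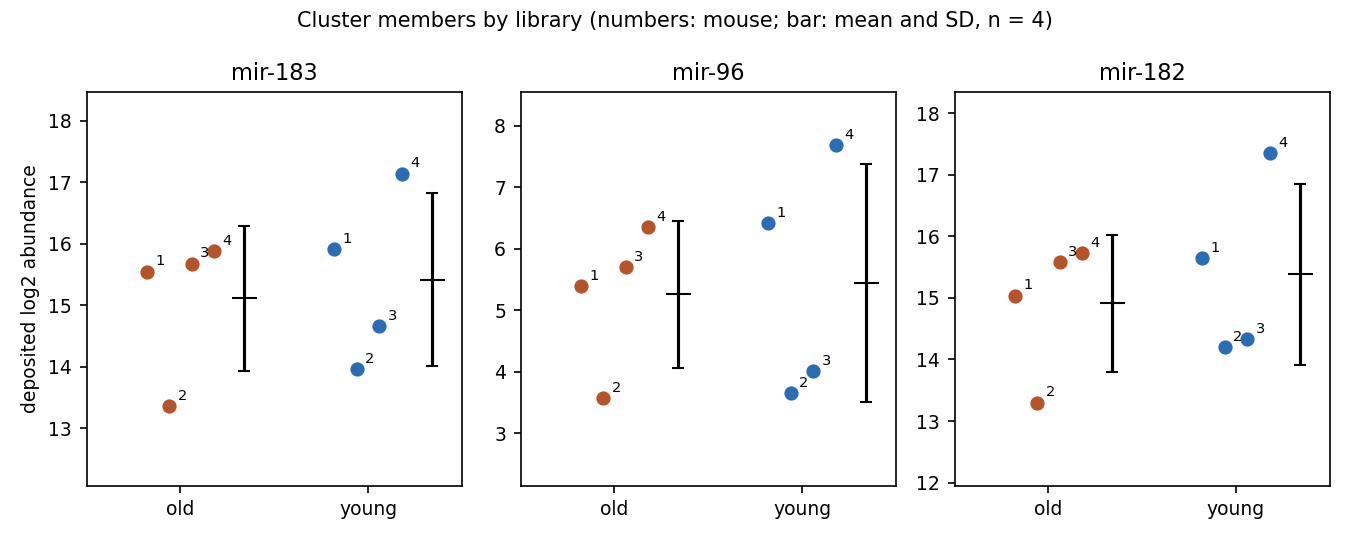
Deposited log2 abundance of mir-183, mir-96 and mir-182 (one panel each, every axis covering the same number of log2 units) in old and young libraries; numbers name the mouse and bars are the mean and SD of 4 libraries. Old 2 was the lowest library and young 4 the highest in each panel, and the groups overlapped.

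mir-183 ranked between 13 and 44 among the 1181 precursors of a library and mir-182 between 12 and 47, while mir-96 ranked between 187 and 353. In reads recovered from the steps, mir-183 had 19137 to 106072 reads in old libraries and 35821 to 398509 in young ones. mir-96 had 33 to 219 reads in old libraries and 43 to 863 in young ones. The value of mir-96 thus carries a larger counting error than those of the outer members: 33 reads in old 2 have an exact Poisson 95% interval from 23 to 46. This interval covers counting error only, since reads are not independent molecules.

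The cluster took a small share of the summed linear values of a library, 0.672%, 0.225%, 0.878% and 0.940% in the old libraries 1 to 4, against 0.754%, 0.333%, 0.364% and 3.25% in the young libraries 1 to 4. Young 4 held the largest share. Young 4 was also the deepest library, at 39.4 M reads. Over the 8 libraries the mean of the members, each centred on its own mean, had a Pearson r of 0.39 with library size. Without young 4 that r was -0.32. A read that matches several precursors can enter the denominator of these shares repeatedly.

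The level of the cluster varied widely between mice of the same age. Among old mice mir-183 spanned 2.52 log2 units (5.74-fold), mir-182 2.43 (5.39-fold) and mir-96 2.78 (6.87-fold). Among young mice mir-183 spanned 3.18 (9.06-fold), mir-182 3.16 (8.94-fold) and mir-96 4.04 (16.4-fold). Over the 8 libraries mir-183 spanned 3.78 log2 units (13.7-fold), mir-182 4.06 (16.7-fold) and mir-96 4.11 (17.3-fold). The SD over the 8 libraries was 1.21 for mir-183, 1.23 for mir-182 and 1.49 for mir-96, against a median of 0.64 over the 359 compared precursors. These SDs held the ranks 76, 74 and 60 of 359. Of the 12 precursors outside the cluster whose mean lay within 1 log2 unit of mir-183, 0 had a larger SD, and their median SD was 0.48. The same held for the 11 such neighbours of mir-182, with a median SD of 0.495, whereas 14 of the 61 neighbours of mir-96 had a larger SD than mir-96. At their level, then, no compared precursor outside the cluster varied more than the outer pair.

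No member passed the test between old and young myoblasts. In limma with Benjamini-Hochberg adjustment over all 359 precursors, 0 passed the threshold of 0.05 (0.0%), 4 (1.11%) had an unadjusted p under 0.05, and none of the 3 members was among these. mir-183 averaged 15.12 ± 1.18 in old mice and 15.42 ± 1.40 in young mice (SD, n = 4 each), which differ by -0.30 on the log2 scale (SE 0.76, 95% interval -2.01 to 1.41, limma adjusted p = 0.995, two-sided exact permutation p = 0.800). mir-96 averaged 5.26 ± 1.19 in old mice and 5.44 ± 1.94 in young mice, which differ by -0.18 (95% interval -2.36 to 1.99, limma adjusted p = 0.995, exact permutation p = 0.829). mir-182 averaged 14.91 ± 1.12 in old mice and 15.38 ± 1.47 in young mice, which differ by -0.47 (95% interval -2.19 to 1.25, limma adjusted p = 0.995, exact permutation p = 0.629).

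These intervals leave room for changes of several-fold either way, and the SEs (0.76, 0.97 and 0.77 for mir-183, mir-96 and mir-182) were above the median of 0.50 over all compared precursors. With 4 against 4 libraries the exact test cannot give a p below 0.0286. Groups of 3 of the 359 precursors did not overlap (0.836%), and no member was among them. The sign of the differences rested on single libraries. Without old 2 they were 0.28, 0.38 and 0.065 for mir-183, mir-96 and mir-182, and without young 4 they were 0.27, 0.57 and 0.19. That of mir-96 was also above 0 without young 1, at 0.14.

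The members moved together from mouse to mouse. Ordered by mir-183, the libraries ran old 2, young 2, young 3, old 1, old 3, old 4, young 1 and young 4. mir-96 gave the same order without exception, at a mean log2 ratio to mir-183 of -9.92. mir-182 gave it with old 4 and young 1 exchanged.

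Over the 8 libraries mir-183 and mir-182 had a Pearson r of 0.978 (exact permutation p = 4.96e-05) and a Spearman rho of 0.976 (exact permutation p = 0.000397). mir-183 and mir-96 had an r of 0.970 (exact permutation p = 2.48e-05, the smallest that 8 libraries can give) and a rho of 1.0 (exact permutation p = 4.96e-05). mir-96 and mir-182 had an r of 0.964 (exact permutation p = 4.96e-05) and a rho of 0.976 (exact permutation p = 0.000397). Adjusted by Benjamini-Hochberg over the 3 pairs, the exact permutation p was 4.96e-05 for each r and 0.000149 to 0.000397 for rho.

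The relation held without the libraries farthest from the median. Without the 2 libraries farthest from the median of the first member named (young 2 and old 2 for mir-183, old 2 and young 4 for mir-96, so that young 4, the highest, stayed in for the pairs of mir-183), r was 0.988 for mir-183 with mir-182, 0.978 for mir-183 with mir-96 and 0.982 for mir-96 with mir-182. With the means of old and young libraries removed, r was 0.980, 0.972 and 0.973 in the same order (exact permutation within groups, p = 0.00174 for each). Leaving out any single library kept r between 0.947 and 0.986. The members share library and depth, and the part of library scaling in their correlation was not tested beyond the rescalings listed among the alternatives. Over all pairs of the 359 precursors the median r was 0.22.

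**Figure D2:**
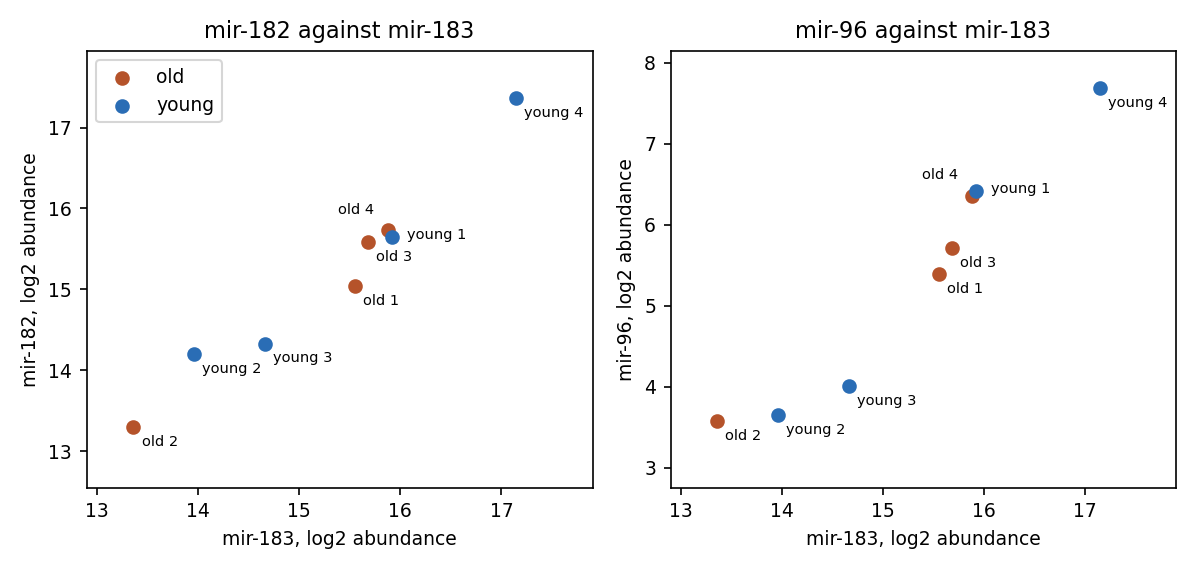
Log2 abundance of mir-182 (left) and mir-96 (right) against mir-183 in each library, old and young in different colours. The 8 libraries rise along 1 line in both panels, from old 2 at the lower end to young 4 at the upper end, and old and young libraries lie along it in mixed order.

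Each member's closest partners were the other 2 members. Of 358 possible partners ranked by r, mir-182 was at rank 1 and mir-96 at rank 2 for mir-183. For mir-96 they were mir-183 at rank 1 and mir-182 at rank 2, and for mir-182 they were mir-183 at rank 1 and mir-96 at rank 2. The ranks are a description of these libraries.

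The ratios between the members were steadier than their levels. mir-182 stood to mir-183 at log2 ratios of -0.51, -0.06, -0.10 and -0.15 in the old libraries 1 to 4, against -0.27, 0.24, -0.33 and 0.22 in the young libraries 1 to 4. mir-183 was the higher of the pair in 6 of 8 libraries, and the mean log2 ratio of -0.12 was smaller than its SD of 0.26 (n = 8), so the levels of the outer members were not separable beyond their spread. The ratio averaged -0.21 ± 0.21 in old mice and -0.035 ± 0.31 in young mice (SD, n = 4 each), a difference of -0.17 (two-sided exact permutation p = 0.371, 0.643 adjusted over 3 ratios). The range of this ratio was 0.75 log2 units, against 3.78 for the level of mir-183.

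mir-96 lay far below both partners in 8 of 8 libraries. Its log2 ratio to mir-183 was -10.16, -9.78, -9.97 and -9.52 in the old libraries 1 to 4, against -9.50, -10.31, -10.65 and -9.45 in the young libraries 1 to 4. mir-183 was thus 699 to 1607 times as abundant per length, and 967 times on the geometric mean. The hairpin of mir-96 is the longer, which widens this gap: in recovered reads, without division by length, there were 462 to 1058 reads of mir-183 for each read of mir-96. The ratio averaged -9.86 ± 0.27 in old mice and -9.98 ± 0.60 in young mice (SD, n = 4 each), a difference of 0.12 (two-sided exact permutation p = 0.743, also after adjustment over the 3 ratios). Against mir-182 it averaged -9.65 ± 0.21 in old mice and -9.94 ± 0.60 in young mice, a difference of 0.29 (two-sided exact permutation p = 0.429, 0.643 adjusted).

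Counting error of the mir-96 reads enters this ratio. For the highest and the lowest library of each group, chosen for their values, the counting interval ran from -9.55 to -9.35 in young 4 and from -11.07 to -10.27 in young 3. In the old libraries it ran from -9.72 to -9.33 in old 4 and from -10.43 to -9.90 in old 1. The widest of the old intervals was that of old 2, -10.30 to -9.30. Technical spread between libraries is not part of these intervals and was not measured. Across the 8 libraries a straight line through the log2 values had a slope of 1.19 for mir-96 on mir-183 and of 0.996 for mir-182 on mir-183. No interval was computed for these slopes, so whether mir-96 moved further than mir-183 was not tested. The ratio itself did not follow the level of mir-183 in every library: it was lowest in young 3 and young 2, where mir-183 was low, and highest in young 4, but old 2, with the lowest mir-183, had -9.78, above the mean of -9.92.

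**Figure D3:**
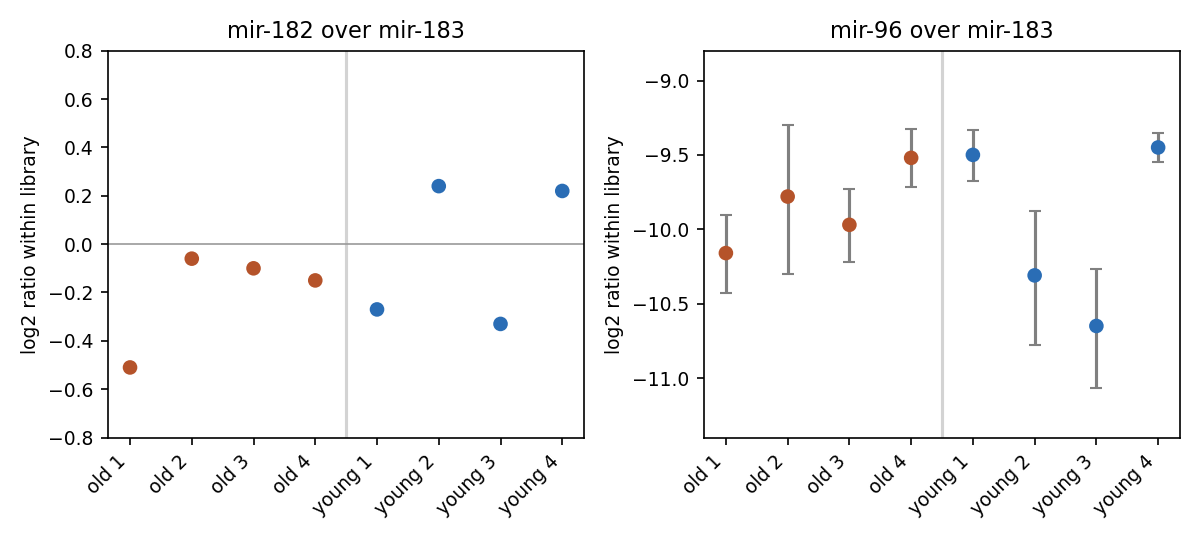
Log2 ratio of mir-182 to mir-183 (left) and of mir-96 to mir-183 (right) within each library, old libraries left of the grey line and young ones right of it; bars in the right panel are exact Poisson 95% intervals for the mir-96 reads. The left ratio stays between -0.51 and 0.24 and the right one between -10.65 and -9.45.

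The tightness of the cluster was set beside other precursors that lie close together. Among the 359 precursors, 137 pairs had starts within 5000 bases on the same strand without overlap, 3 of them being pairs of members. The median r of the 134 other pairs was 0.91, with values from -0.47 to 0.996, so close neighbours were correlated as a rule. Of these, 23 had an r above 0.964, the lowest of the member pairs. Among them 17 lay on chromosome 12, which holds the imprinted Dlk1-Dio3 miRNAs, and 6 elsewhere. The 6 are not separate observations: mir-30c-1 enters with mir-30e and with mir-30f, at an r of 0.993 each. The median r of the 65 pairs off chromosome 12 was 0.84.

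In 3 other clusters every r was below those of the member pairs, and the difference itself was not tested. Their pairs also varied less, and r depends on spread. The smaller SD of a pair was at most 0.97 there, against 1.21 to 1.23 for the member pairs. In miR-17-92, a cluster linked to cell growth, 10 close pairs of its 5 compared members had r from 0.710 to 0.949. In miR-23b, miR-27b and miR-24-1 the 3 pairs had r from 0.507 to 0.682, and among miR-322, miR-503 and their neighbours on chromosome X, 10 pairs had r from 0.312 to 0.946. The gap in level was wide but not particular to the miR-183 cluster: 8 of the 134 other close pairs also differed by over 9 log2 units in mean level, up to 15.7, while the median difference was 2.73. Off chromosome 12, 2 of the 65 pairs had SDs of at least 1 in both members. They were mir-344d-1 with mir-344d-2 (r = 0.992), by name copies of 1 miRNA, and mir-296 with mir-298 (r = 0.936).

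**Figure D4:**
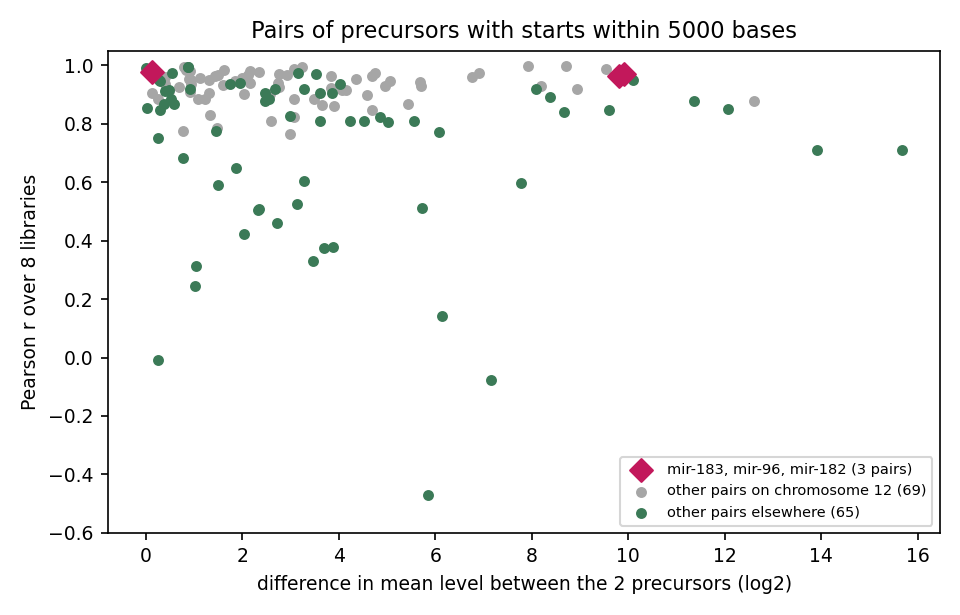
Pearson r over the 8 libraries against the difference in mean log2 level for 137 pairs of compared precursors whose starts lie within 5000 bases on 1 strand. The 3 member pairs (diamonds) lie between 0.964 and 0.978, and those with mir-96 do so at a difference of almost 10 log2 units.

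The promoter of the host gene Mirc35hg is shown because the 3 members moved together. It covers 250 bases before to 50 bases after the RefSeq start (chr6:30174076-30174375, minus strand, GRCm38.p6), with E-boxes and a CCAAT box in capitals.
Mirc35hg: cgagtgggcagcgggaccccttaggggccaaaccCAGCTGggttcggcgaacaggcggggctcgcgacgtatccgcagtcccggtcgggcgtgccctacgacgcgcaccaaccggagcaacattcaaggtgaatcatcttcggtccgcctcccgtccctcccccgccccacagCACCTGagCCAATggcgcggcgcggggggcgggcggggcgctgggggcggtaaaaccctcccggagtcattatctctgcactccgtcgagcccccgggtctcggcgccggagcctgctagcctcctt
It held 2 matches to the E-box CANNTG, the letters that MyoD-family factors can bind, as do 72.3% of the 32851 promoters of the table with at least 1 match. Of the E-box matches 1 was CAGCTG, which 16.3% of promoters hold and which also counts as CANNTG. There were 1 match to CCAAT (37.4% of promoters) and 4 to the GC box GGGCGG (35.7%), with both strands searched and overlapping matches counted. G and C made up 70.3% of its bases, against a median of 52.7%. These matches describe letters in the sequence and are no evidence that a factor binds.

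Several other miRNAs followed the cluster across the 8 libraries. The cluster's mean, with each member centred on its own mean, was compared with the 356 other precursors, whose median r with it was 0.23. The 5 highest were mir-1983 (r = 0.930, rho = 0.976), mir-221 (r = 0.901, rho = 0.833), mir-700 (r = 0.879, rho = 0.786), mir-148b (r = 0.861, rho = 0.857) and mir-34a (r = 0.858, rho = 0.857). They were chosen for their r among 356 over 8 libraries, so no p is given. mir-1983 measured 7.35, 6.39, 8.11 and 8.50 in the old libraries 1 to 4, against 8.53, 7.10, 7.69 and 8.97 in the young libraries 1 to 4. Its lowest library was old 2 and its highest young 4. mir-221, which represses the cell cycle inhibitor p27 and is high in dividing myoblasts, had log2 abundances of 14.26, 13.51, 14.31 and 15.12 in the old libraries 1 to 4, against 14.11, 13.81, 13.80 and 15.51 in the young libraries 1 to 4. It was highest in young 4 and lowest in old 2, as the cluster was. mir-34a, a direct target of the stress regulator p53, averaged 11.80 ± 0.42 in old mice and 11.70 ± 0.76 in young mice. mir-148b, of a family that represses the DNA methyltransferase Dnmt1, averaged 10.78 ± 0.76 in old mice and 11.12 ± 0.49 in young mice (SD, n = 4 each).

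The miRNAs that ran most strongly against the cluster were 2 members of the X-linked miR-322 cluster and a miRNA of slow and cardiac muscle. mir-542 (r = -0.930, rho = -0.881) measured 5.97, 6.71, 6.06 and 4.83 in the old libraries 1 to 4, against 5.44, 6.94, 6.84 and 4.40 in the young libraries 1 to 4. It was lowest in young 4 and high in old 2, young 2 and young 3, where the cluster was low. mir-322 (r = -0.873, rho = -0.881), which is induced when mouse myoblasts leave the cell cycle and represses the cycle phosphatase Cdc25a, measured 9.06, 9.43, 9.37 and 8.92 in the old libraries 1 to 4, against 8.99, 10.03, 9.71 and 7.89 in the young libraries 1 to 4. mir-499 (r = -0.840, rho = -0.905), from an intron of the slow myosin gene Myh7b, measured 4.32, 4.60, 3.95 and 1.60 in the old libraries 1 to 4, against 3.45, 4.44, 5.42 and 0.36 in the young libraries 1 to 4. None of these 8 passed limma between old and young libraries (adjusted p = 0.995 for each).

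Young 4 carried a part of this likeness. Without young 4, r was 0.910 for mir-1983, 0.815 for mir-221, 0.779 for mir-700, 0.860 for mir-148b and 0.736 for mir-34a. In the same 7 libraries it was -0.879 for mir-542, -0.762 for mir-322 and -0.690 for mir-499. Only 2 of the 5 highest and 1 of the 3 lowest then kept those places. Without the 2 libraries farthest from the median of the cluster, young 4 and old 2, r lay between 0.731 and 0.852 for the 5 and between -0.937 and -0.728 for the 3.

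**Figure D5:**
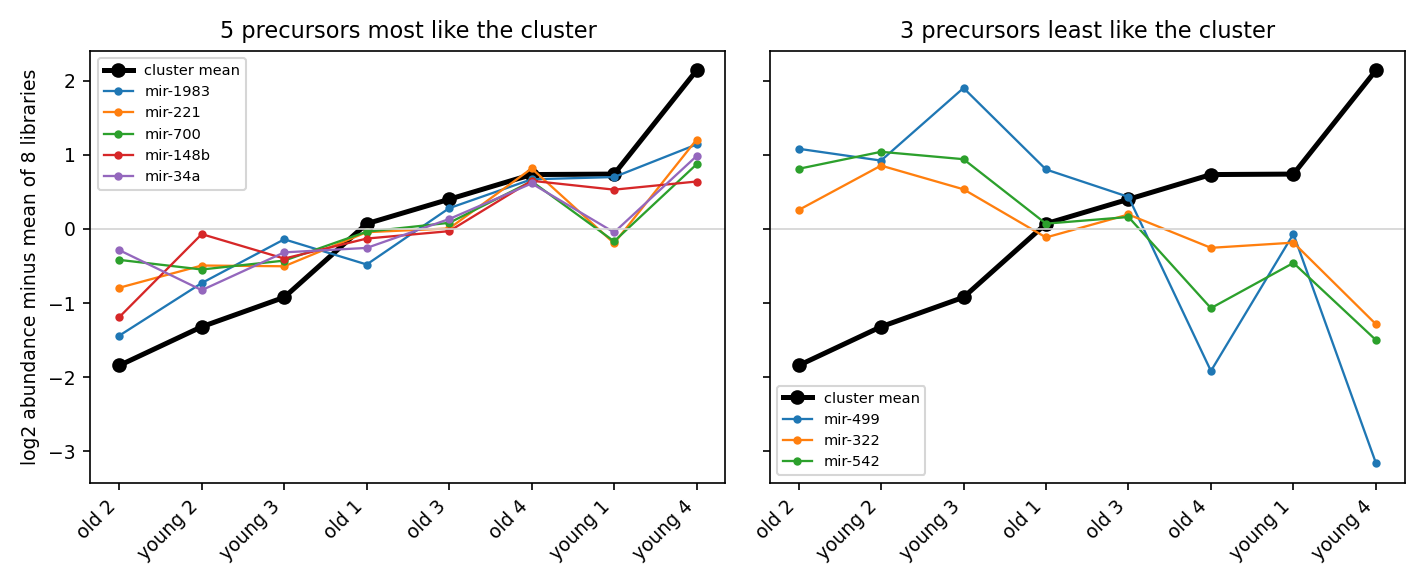
Log2 abundance minus its mean over the 8 libraries for the cluster mean (black) with the 5 precursors most like it (left) and the 3 least like it (right), libraries ordered by the cluster mean. The 5 move with the cluster over a smaller range, and mir-542, mir-322 and mir-499 are lowest in young 4, where the cluster is highest.

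Muscle miRNAs did not follow the cluster as a group. Of 10 listed muscle markers 8 were compared, and 2 of these 8 had an r above 0 with the cluster mean (median -0.55, from -0.84 to 0.34). Over all 356 precursors 227 had an r above 0 (median 0.23). mir-133a-1 and mir-133a-2, with an r of -0.55 each, are by name copies of 1 miRNA. The 2 most abundant, mir-486 and mir-378a, had r of -0.19 and 0.19. The summed level of the list was 21.17 to 21.80 in old and 20.47 to 22.18 in young libraries, lowest in young 4. Old against young, 4 of the 8 had a higher and 4 a lower mean and 0 passed limma, with a median difference of 0.038 beside -0.05 over all compared precursors.

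Markers of epithelia, in which the cluster is also known to be expressed, were mostly near the floor. Of the 7 listed, mir-200a and mir-429 were listed at 0 in all 8 libraries, and mir-200b, mir-200c and mir-141 did not reach the level for comparison. The other 2 moved with the cluster: mir-205, a miRNA of squamous epithelia, had 4.78, 4.93, 6.01 and 8.02 in the old libraries 1 to 4 and 6.43, 5.78, 5.76 and 7.35 in the young libraries 1 to 4 (r = 0.700). mir-203, a skin miRNA, had 3.23, 2.82, 3.09 and 3.82 in the old libraries 1 to 4 and 3.51, 3.23, 3.39 and 4.76 in the young libraries 1 to 4 (r = 0.826). The summed level of the list was 5.30 to 8.12 in old and 6.10 to 7.65 in young libraries, and its part in the level of the cluster was not tested. The highest level of mir-205, 8.02 in old 4, was below the lowest of the outer members, 13.30 for mir-182 in old 2. Both are levels on the deposited scale, and how well each sequence is captured is not known. The ratio of the 2 miRNAs within epithelial cells was not measured.

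Sensory and neural miRNAs, from tissues where the cluster is abundant, were also low apart from mir-204. Of 11 listed, 2 were compared: mir-204, known from retinal pigment epithelium, between 7.94 and 11.16 (r = 0.330) and mir-219a-1 between 4.48 and 6.0 (r = 0.227). The copies of mir-124 and mir-9, the defining neuronal miRNAs, reached at most 3.22 and were at 0 in 1 to 6 libraries each. The summed level of the list was 8.12 to 10.6 in old and 8.22 to 11.2 in young libraries, highest in young 4, and its part was not tested.

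Blood markers were nearly absent: mir-144, mir-142 and mir-223 were listed at 0 in all libraries, and mir-150 had an r of 0.042. The blood list summed to 3.05 to 4.47 in old and 1.97 to 4.32 in young libraries. The endothelial marker mir-126a ranged over 3.32 to 4.34 in old mice and 2.96 to 5.11 in young mice (r = 0.632), highest in young 4. Fibroblast and smooth muscle markers were abundant, with mir-143 between 14.06 and 15.56 (r = -0.520) and mir-214 between 11.69 and 13.16 (r = 0.101), and 5 of their 6 compared precursors had an r above 0 (median 0.30), beside 227 of all 356 (median 0.23). All 6 had a higher mean in old libraries, with a median difference of 0.29 beside -0.05 over all compared precursors. These 6 are not separate observations: mir-199a-1, mir-199a-2 and mir-199b are by name 1 family, with differences of 0.29, 0.26 and 0.30. That list summed to 15.39 to 15.87 in old and 14.62 to 15.68 in young libraries. In these lists 0 precursors passed limma between old and young.

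Other miRNAs known, like miR-182 and miR-96, to repress FoxO1 or FoxO3 did not pass between the ages either. Of 6 listed, 5 were compared (mir-223 was listed at 0), 5 had a higher mean in old libraries, 0 passed limma, and the median difference was 0.16 beside -0.05 over all compared precursors. The 5 are not separate observations: mir-212 and mir-132 start 294 bases apart and had an r of 0.913 with each other. mir-27a, a repressor of FoxO1, averaged 11.62 ± 0.58 in old mice and 11.36 ± 0.45 in young mice (SD, n = 4 each) and had an r of 0.532 with the cluster.

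Few other miRNAs shared a seed with the members, in a table where most seeds are unshared. Among 1738 mature miRNAs of the RefSeq table, with 1398 different seeds, 2 others shared a seed with an arm of a member and are shown for comparison.
miR-1271-5p: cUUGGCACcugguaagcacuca
miR-3475-5p: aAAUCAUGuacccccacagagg
The first shares UUGGCAC with miR-96-5p and its level was not analysed here. The second shares AAUCAUG with miR-96-3p, and its precursor mir-3475 measured 5.37, 2.05, 1.82 and 0.0 in the old libraries 1 to 4, against 3.36, 5.81, 4.70 and 1.45 in the young libraries 1 to 4. These averaged 2.31 ± 2.24 in old mice and 3.83 ± 1.88 in young mice (SD, n = 4 each), a difference of -1.52 that did not pass (limma adjusted p = 0.995), and the groups overlapped.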

How the data were processed

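Small RNA of 8 myoblast libraries was measured, 4 from old and 4 from young mice. Per the labels' protocols RNA was isolated with a mirVana kit and libraries followed standard Illumina steps. BWA and mm10 are named in the submitters' processing notes; how reads were trimmed, counted and, with several matches, assigned is not given in the sources used here. Values were deposited by the authors on a log2 scale with 2 decimals and a floor at 0, for 1181 precursors. Linear values multiplied by precursor length were tested for whole steps where they came to at most 12 reads: 99.5% to 100% of these 111 to 218 low values of a library were whole within 0.1 of a read, as in RPKM, and read numbers and library sizes rest on this.

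limma 3.58.1 (R 4.3.3; eBayes with trend) was run on the deposited log2 values of 359 precursors, with no pseudocount. Ratios and correlations used exact permutation tests over libraries. Tools were scipy 1.17.1, pandas 2.3.3 and numpy 2.4.6 under Python 3.11.15, with matplotlib 3.10.9 for figures. The limma step was tested on simulated data. RefSeq positions were matched by name for 1177 of 1181 precursors and 359 of 359 compared ones. Named precursors were the members, those sharing a seed, the 5 most and 3 least correlated with the cluster mean, and up to 2 of the most abundant of each list. In the muscle, FoxO and epithelial lists, and among the close pairs, further precursors were named after their values were seen. Alternatives were other pseudocounts, scalings, filters, array weights, a block on the replicate number and fits with libraries left out. The members and lists were chosen with earlier results of these data known.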

Additional observations from a re-analysis of the deposited data

Results flagged for a closer look

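mir-183 in old 2, at 13.36, lay far below the other old libraries, which were between 15.55 and 15.88: its gap to the nearest of them was 0.869 of the range of the group, above Dixon's 95% critical value for 4 samples. It was the 1 such value among 30 groups examined (levels of the members, of the precursors most and least like them and of mir-3475, and the ratios), and chance picks out about 1 in 20 groups. mir-182 at 13.30 and mir-96 at 3.58 were also lowest in old 2.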

How the results depend on the processing

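The count of precursors passing limma was 0 under every alternative run except without both old 3 and young 4, where it was 33; no member was among them, and these libraries were picked with their values known. The correlations between members stayed past the threshold under the 15 alternatives run for them (pseudocounts, rescalings, group means removed, libraries left out), between 0.924 and 0.986; leaving out single libraries gave 0.965 to 0.986 for mir-183 with mir-182, 0.950 to 0.982 for mir-183 with mir-96 and 0.947 to 0.973 for mir-96 with mir-182. No difference of a member or of a ratio between old and young passed under any alternative, but signs changed. Leaving out single libraries gave -0.79 to 0.28 for mir-183, -0.78 to 0.57 for mir-96 and -0.87 to 0.19 for mir-182. With array weights mir-183 was at 0.070 and mir-96 at 0.33, and without both old 3 and young 4 they were at 0.083 and 0.42. For the ratios, leaving out single libraries gave -0.27 to -0.068 for mir-182 over mir-183, -0.10 to 0.30 for mir-96 over mir-183 and 0.088 to 0.53 for mir-96 over mir-182; with quantile normalization mir-96 over mir-183 was at -0.043, mir-182 over mir-183 at -0.35, mir-183 at -0.016 and mir-96 at -0.059. Quantile normalization moved the median difference of all precursors to 0.089, against -0.052 as deposited. The causes were not tested. A mean of at least 100 removed mir-96, which then has no value. With the replicate number as a block the differences were the same, -0.30, -0.18 and -0.47 for mir-183, mir-96 and mir-182, with limma adjusted p from 0.939 to 0.947. In that fit 0 precursors passed, and 39 had an unadjusted limma p under 0.05, against 4 without the block. Same-numbered libraries deviated together for the numbers 2, 3 and 4 (correlations of 0.43, 0.66 and 0.58) but not for number 1 (-0.064). The labels do not say that equal numbers are pairs, so the main tests did not take them as pairs. Whether libraries of equal number share a batch was not tested. Depth limits the ratio of mir-96 in libraries with 33 to 56 of its reads.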
